A study of Mus musculus with 4 samples.

Results

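Axon guidance proteins are secreted or membrane-bound cues and the receptors that read them. By the naming rule used here (class 3 to 7 semaphorins, plexins, neuropilins, ephrins, Eph receptors, Slits, Robos, netrins, Unc5 receptors, Dcc and Neo1), 72 of 49585 annotated mouse genes were chosen. Of these, 69 encode ligands or receptors, and the other 3 are antisense RNAs of Plxna4 that the rule takes by name. Their messenger RNA was measured in C2C12, a mouse myoblast line of C3H origin, growing as undifferentiated cells. Cells transduced with the empty retroviral vector pLXSN gave 2 libraries, called controls 1 and 2 below after their replicate numbers. Cells transduced to overexpress C/EBPβ, a leucine-zipper transcription factor, gave the other 2, called C/EBPβ libraries 1 and 2. Both groups went through the same transduction, 7 days in 1200 μg/ml G418 as a drug selection, and 48 h of proliferation as pooled stable cells. The medium stated for the line holds 10% serum. The promoter driving C/EBPβ was not stated in these sources, and the model is limited to pooled transductants of 1 immortal line. Nor was it stated whether replicates were transduced separately, so p-values measure the spread between these libraries, which may be technical.

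Semaphorins signal through plexins, and most of the secreted class 3 members also need neuropilins as binding partners. Ephrins are tethered to the cell surface and bind Eph receptor tyrosine kinases on neighbouring cells, with signals running both ways. Netrins attract through Dcc and neogenin and repel through Unc5 receptors, and Slits repel through Robos. Outside the nervous system these genes steer cell migration, vessel growth and tissue boundaries. In muscle, satellite cells release Sema3a during repair, Eph receptors affect how satellite cells move, and neogenin takes part in myotube formation.

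Total counts assigned to genes were 37566321 to 40912955 in 3 libraries and 92027838 in C/EBPβ library 2, so that 1 count was worth 0.0109 CPM there and 0.0243 to 0.0264 CPM in the others. CPM are counts scaled to a TMM-adjusted library total of 1000000. Cebpb stood at 85.0 and 76.8 CPM with empty vector and at 483 and 473 CPM with C/EBPβ. That value does not separate vector-borne from chromosomal transcripts. All 6 myoblast markers examined were present, with summed levels of 2631 to 2787 CPM in empty vector and 1631 to 1857 CPM in C/EBPβ libraries. Des, Chrna1, Cdh15 and Myod1 were lower (-0.57, -0.74, -1.25 and -0.36), while the precursor genes Myf5 and Pax7 were higher (0.60 and 0.94). Of 6 neuron markers, Rbfox3 and Snap25 had 0 counts in every library and Syt1, Elavl3 and Slc17a6 at most 5 counts in any. Their summed level, 249 to 254 CPM in empty vector and 55.2 to 67.1 CPM in C/EBPβ libraries, came almost wholly from Stmn2, a microtubule regulator. Summed Schwann cell and neural crest markers were 2.58 to 2.72 against 3.98 to 4.43 CPM, with Sox10 and Foxd3 at 0 counts (2 of 5 listed markers). The 5 endothelial markers summed to 0.502 to 0.705 against 1.21 to 1.24 CPM, with none at 0 in all libraries. The 4 leukocyte markers summed to 4.78 to 4.98 against 5.87 to 6.29 CPM, with Tyrobp and Adgre1 at 0 and nearly the whole sum from Cd68, which did not pass (0.33). Whether these shifts in marker levels play a part in the results was not tested. In bulk RNA, fewer cells that express a gene and less RNA per cell cannot be told apart.

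Myoblasts with C/EBPβ had less RNA for most of the guidance ligands that changed and more RNA for most of the receptors that changed. The filter on low counts left 53 of the 72 genes, and 32 of them passed an adjusted p of 0.05 (edgeR quasi-likelihood test, Benjamini-Hochberg adjustment over all tested genes), 15 higher and 17 lower. Across all 15078 tested genes, 24.9% passed, 14.1% higher and 10.8% lower. Among ligands, 30 of 34 were tested, of which 5 rose, 14 fell and 11 did not pass, with a median log2 fold change of -0.33. Among receptors and co-receptors, 23 of 35 were tested, of which 10 rose, 3 fell and 10 did not pass, with a median of 0.25. The median was -0.20 over all tested guidance genes and 0.00 over all tested genes. These counts and medians cover only members above the filter on low counts, and a gene can pass it through 1 group. Changes of at least 2-fold were seen in 11 called members, 6 up and 5 down, and in 941 up and 522 down across all 15078 tested genes. By role, 3 ligands were up and 4 down at that size, and 3 receptors up and 1 down. Ligands that changed at least 2-fold were thus nearly even between directions, and most ligand falls were smaller. The groups did not overlap in 46 of 53 tested members, which is read against 66.2% of all tested genes. Below, some genes are also given with 1 library left out. Such a fit keeps 1 library in 1 group, so its spread comes from the other group's pair alone. A call lost or gained there depends on which pair is left as well as on the library left out.

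**Figure D1:**
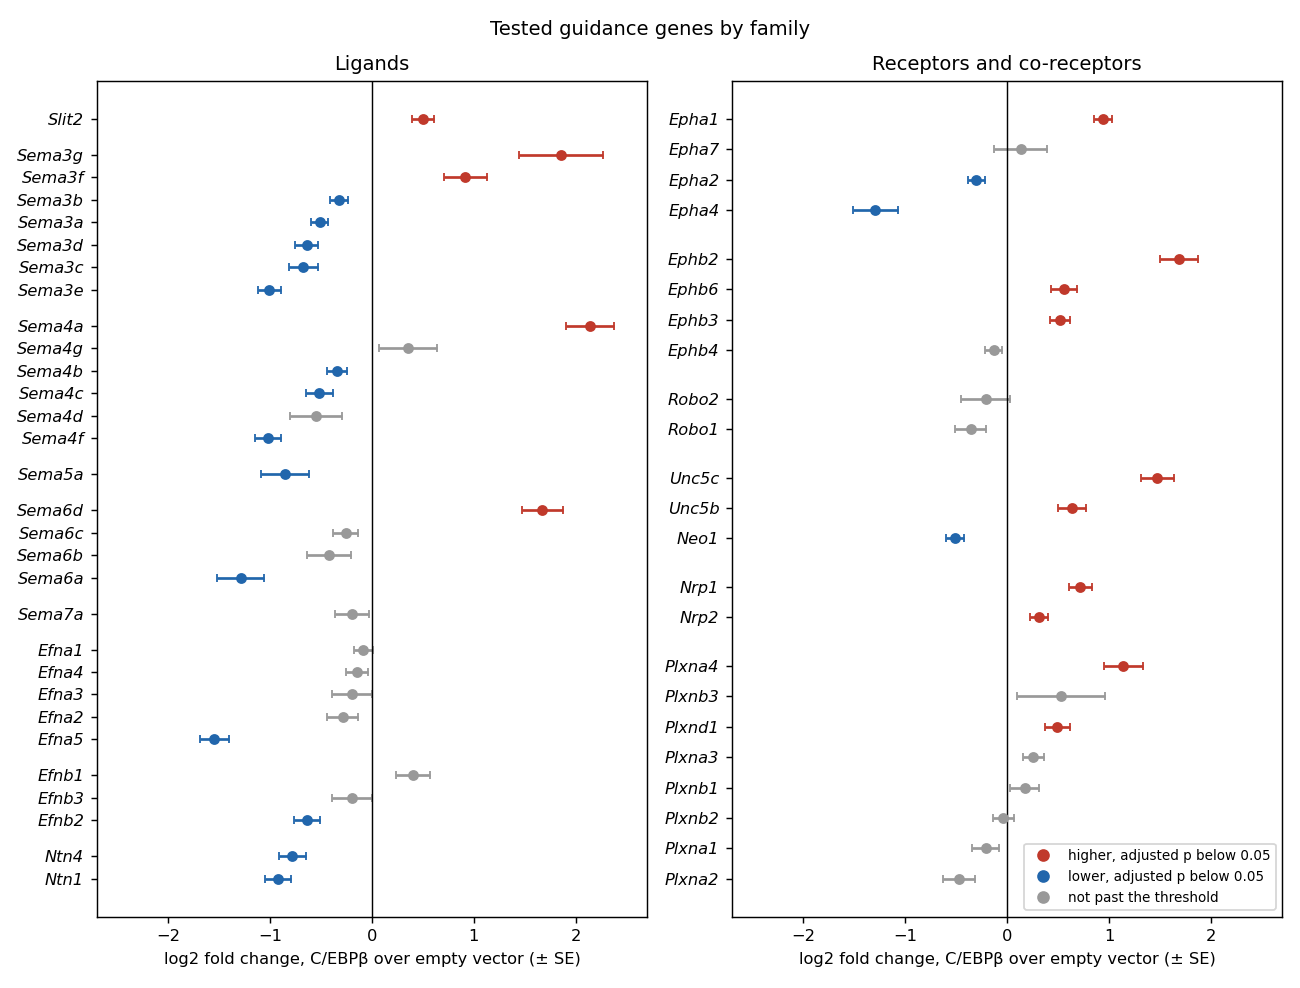
Log2 fold change (C/EBPβ over empty vector, ± SE, 2 libraries per group) of each tested guidance gene, with ligands on the left and receptors on the right, grouped by family. Red points are higher and blue points lower at an adjusted p below 0.05; 14 of 19 called ligands lie left of 0, and 10 of 13 called receptors lie right of it.

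Class 3 semaphorins, the secreted class, were all tested, and each passed: 5 fell and 2 rose. Sema3e, which binds plexin D1 directly, stood at 80.2 and 92.5 CPM with empty vector and 39.2 and 46.5 CPM with C/EBPβ. Both C/EBPβ libraries were thus near 50% of the control level, and the log2 fold change was -1.01 (SE 0.11, adjusted p = 4.17e-04). Sema3a, the classical repellent of sensory and motor axons, had 84.5 and 88.6 against 59.9 and 61.2 CPM (-0.51, SE 0.08, adjusted p = 0.00217). Sema3d, which acts in neural crest and vessel development, had 28.9 in both controls against 16.9 and 20.0 CPM (-0.64, SE 0.11, adjusted p = 0.00391). For each of these 3 genes the groups were well separated. Sema3c, a cue of cardiac outflow tract development, fell by 0.67 on the log2 scale, from 62.4 ± 13.8 to 39.1 ± 2.45 CPM (SD, n = 2 per group).

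Sema3b was the most abundant of the class per length, at a mean of 18.0 CPM per kb of exon, and changed least. It had 89.7 and 101 CPM with empty vector and 77.1 and 75.8 with C/EBPβ (-0.32, SE 0.09, adjusted p = 0.0300). Its call was lost without control 2 (-0.23, adjusted p = 0.0685), without C/EBPβ library 1 (-0.33, adjusted p = 0.123) and without C/EBPβ library 2 (-0.31, adjusted p = 0.136). The 2 that rose were the least abundant of the class per length in both controls. Sema3f, a ligand of neuropilin 2, went from 5.93 and 4.23 to 11.2 and 8.21 CPM (0.92, SE 0.21, adjusted p = 0.0141), with adjusted p = 0.0746 and 0.69 without control 2. Sema3g, known from endothelium, went from 0.462 and 0.529 to 2.54 and 1.21 CPM (1.86, SE 0.41, adjusted p = 0.0124). It rested on 19 and 20 control counts, and the call was lost without control 1 (1.76, adjusted p = 0.0861) and without control 2 (1.95, adjusted p = 0.0651). Leaving out C/EBPβ library 1 gave 1.28, and leaving out C/EBPβ library 2 gave 2.35.

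The membrane-bound semaphorins of classes 4 to 7 also held more falls than rises, with 5 down and 2 up among 12 tested. Sema4f fell from 14.2 and 14.7 to 6.71 and 7.49 CPM (-1.02, SE 0.12, adjusted p = 6.46e-04). Sema4c, a ligand of plexin B2, was the most abundant of class 4 per length (22.5 CPM per kb). It went from 105 and 139 to 80.9 and 89.2 CPM (-0.52, SE 0.13, adjusted p = 0.0219), and to -0.30 with adjusted p = 0.0587 without control 2. Sema4b showed 57.3 and 67.6 against 47.9 and 50.7 CPM (-0.34, SE 0.10, adjusted p = 0.0386). Without control 2, C/EBPβ library 1 or C/EBPβ library 2 its adjusted p was 0.112, 0.186 and 0.0536, at log2 fold changes of -0.22, -0.30 and -0.38.

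The opposite was seen for Sema4a, which is known for roles in immune cells and the retina. It rose from 0.729 and 0.608 to 2.73 and 3.15 CPM, a 4.40-fold rise and the largest of any tested guidance gene (log2 fold change 2.14, SE 0.24, adjusted p = 4.17e-04). Per length it went from 0.135 and 0.112 to 0.504 and 0.582 CPM per kb, and its mean over all 4 libraries was above 12.5% of tested genes. Sema4d, a plexin B1 ligand, and Sema4g did not pass, at log2 fold changes of -0.55 (adjusted p = 0.155) and 0.36 (adjusted p = 0.410).

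In class 6, whose members also act as receptors, the pair Sema6a and Sema6d moved in opposite directions. Sema6a, a ligand of plexins A2 and A4, fell from 49.1 and 71.0 to 18.7 and 29.9 CPM (-1.29, SE 0.23, adjusted p = 0.00422). Sema6d, a ligand of plexin A1, rose from 6.08 and 5.79 to 23.0 and 15.1 CPM (1.67, SE 0.20, adjusted p = 5.81e-04). For both genes the library of C/EBPβ library 2 lay nearer to the controls. Per length, the share of Sema6a in the summed class 6 level was 53.1% and 60.6% with empty vector and 26.8% and 39.7% with C/EBPβ, and that of Sema6d was 5.46% and 4.11% against 27.4% and 16.6%. Sema6b and Sema6c had log2 fold changes of -0.42 (adjusted p = 0.200) and -0.26 (adjusted p = 0.161, and -0.39 without control 1).

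Sema5a, with thrombospondin repeats outside its semaphorin domain, had 63.7 and 71.6 CPM in controls but 25.8 and 48.2 CPM in the C/EBPβ libraries, which differed widely from each other (-0.86, SE 0.24, adjusted p = 0.0301). Its call was lost in DESeq2 (-0.88, adjusted p = 0.167), and its log2 fold change was -0.94 without control 1 and -0.77 without control 2. The authors' deposited comparison, for which DESeq2 is named and whose libraries were not stated, has Sema5a as lower (-0.92, adjusted p = 3.53e-05). Here its log2 fold change was -1.39 without C/EBPβ library 2 and -0.49 without C/EBPβ library 1, so that 1 library set its size. Sema7a, anchored by a lipid and read by integrins and plexin C1, was the most abundant semaphorin per length at 30.7 CPM per kb. Its values of 97.6 and 119 CPM with empty vector overlapped those of 77.0 and 111 CPM with C/EBPβ (-0.20, SE 0.17, adjusted p = 0.429). Without C/EBPβ library 2 its log2 fold change was -0.49, and without C/EBPβ library 1 its sign turned (0.04).

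Among the receptors of semaphorin signals, no gene fell past the threshold. Both neuropilins rose. Nrp1, a co-receptor for class 3 semaphorins and for VEGF, had 37.1 and 41.4 CPM with empty vector and 70.3 and 59.0 CPM with C/EBPβ (0.72, SE 0.11, adjusted p = 0.00202). The more abundant Nrp2 had 233 and 218 against 294 and 265 CPM (0.31, SE 0.09, adjusted p = 0.0405). That smaller difference did not pass without control 1 (0.35, adjusted p = 0.0535), without control 2 (0.26, adjusted p = 0.113), without C/EBPβ library 1 (0.23, adjusted p = 0.357) or with scaling by library totals (0.29, adjusted p = 0.0513).

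Of 8 tested plexins, 2 rose and 6 did not pass. Plxna4, a class 3 and class 6 semaphorin receptor, went from 3.91 and 4.41 to 10.7 and 7.72 CPM (1.14, SE 0.19, adjusted p = 0.00325). Plxnd1, the receptor of Sema3e, went from 85.7 and 99.9 to 145 and 116 CPM (0.49, SE 0.12, adjusted p = 0.0195), but did not pass without control 1 (0.38, adjusted p = 0.0984) or C/EBPβ library 1 (0.33, adjusted p = 0.119). Ligand and receptor of this pair thus had log2 fold changes of opposite sign, -1.01 for Sema3e and 0.49 for Plxnd1.

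Plxnb2 was the most abundant guidance gene per length, at 65.3 CPM per kb, above 94.3% of tested genes. It had 435 and 507 CPM with empty vector and 462 and 454 with C/EBPβ, groups that overlapped (-0.04, SE 0.10, adjusted p = 0.816, and 0.07 without control 2). Plxna2 stood close to the threshold at -0.47 (adjusted p = 0.0555). It had 44.9 and 60.1 against 42.2 and 33.7 CPM. It passed as lower in DESeq2 (adjusted p = 0.0155), with library totals (adjusted p = 0.0449) and when genes were not filtered (adjusted p = 2.22e-04). Its log2 fold change was -0.67 without control 1 and -0.64 without C/EBPβ library 1. Plxna1, Plxna3, Plxnb1 and Plxnb3 had log2 fold changes of -0.21, 0.25, 0.17 and 0.52. Leaving out control 1 brought Plxna1 to -0.40, and leaving out control 2 brought Plxna1 to 0.01. Plxna3 was at 0.40 and Plxnb1 at 0.40 without control 2, while Plxnb1 was at -0.03 without control 1.

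**Figure D2:**
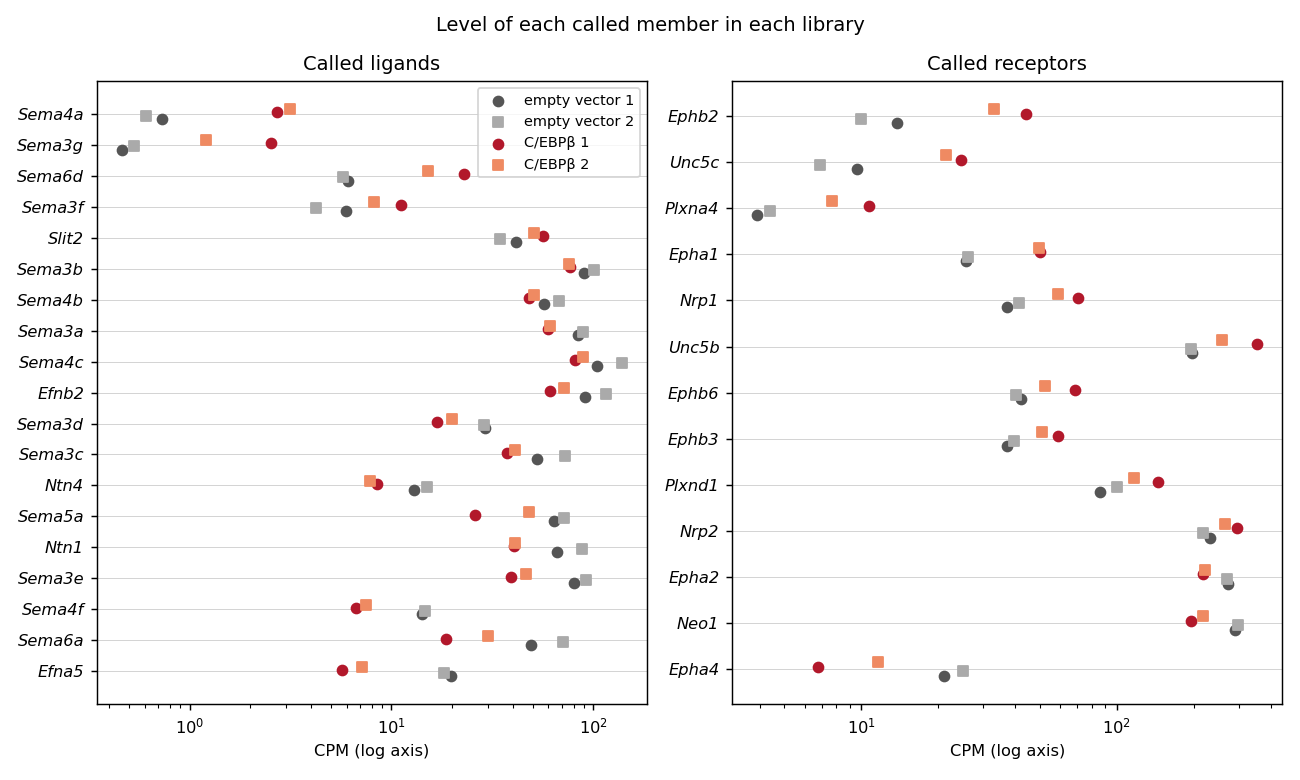
Level of each of the 32 called guidance genes in each library, in CPM on a log axis, ligands left and receptors right, ordered by fold change. Grey symbols are controls and red or orange symbols C/EBPβ libraries. Within every called gene the groups do not overlap, which the choice of called genes makes likely beforehand. C/EBPβ library 2 lies nearer to the controls than replicate 1 in 29 of the 32, beside 83.6% of all 3759 called genes.

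Both tested netrins fell and both tested Unc5 receptors rose. Ntn1, the founding secreted netrin, had 66.2 and 87.7 CPM with empty vector and 40.3 and 40.9 CPM with C/EBPβ (-0.92, SE 0.13, adjusted p = 0.00127). Ntn4, which binds laminins of basement membranes, had 13.0 and 14.9 against 8.44 and 7.85 CPM (-0.78, SE 0.13, adjusted p = 0.00308). In both genes every C/EBPβ value lay below every control value. Ntn5 was under the filter, with 8 and 6 against 16 and 22 counts (0.194 and 0.159 against 0.419 and 0.239 CPM). Ntn3 was not analysed here.

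Among the receptors, Unc5c rose from 9.63 and 6.92 to 24.7 and 21.4 CPM (1.47, SE 0.16, adjusted p = 4.31e-04), a 2.77-fold rise. Unc5b, with the highest mean level per length of the netrin receptors over all 4 libraries (43.0 CPM per kb), stood at 198 and 196 CPM with empty vector and 355 and 257 CPM with C/EBPβ (0.64, SE 0.14, adjusted p = 0.0122). The C/EBPβ libraries of Unc5b differed from each other by more than its controls did. Its log2 fold change was 0.64 without control 1 and 0.63 without control 2. It was 0.38 without C/EBPβ library 1 and 0.85 without C/EBPβ library 2. Neo1, neogenin, which also binds repulsive guidance molecules, fell from 290 and 297 to 195 and 217 CPM (-0.51, SE 0.09, adjusted p = 0.00413). Dcc had 0 counts in all 4 libraries, which allows up to 0.0327 to 0.0793 CPM per library (3 counts, counting error only).

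Unc5b and Neo1 had similar levels per length in control cells and dissimilar levels with C/EBPβ. The ratio of Unc5b to Neo1, both in CPM per kb, was 1.01 and 0.983 in empty vector libraries and 2.72 and 1.76 in C/EBPβ libraries. Neo1 made up 49.3% and 50.1% of the summed netrin receptor level with empty vector and 26.5% and 35.6% with C/EBPβ. The sum over the 6 netrin receptors itself was 67.6 and 68.0 against 84.4 and 70.0 CPM per kb. In the sum, then, the groups did not overlap, but C/EBPβ library 2 was close to the controls. The summed netrins went from 14.1 and 18.0 to 8.86 and 8.73 CPM per kb.

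**Figure D3:**
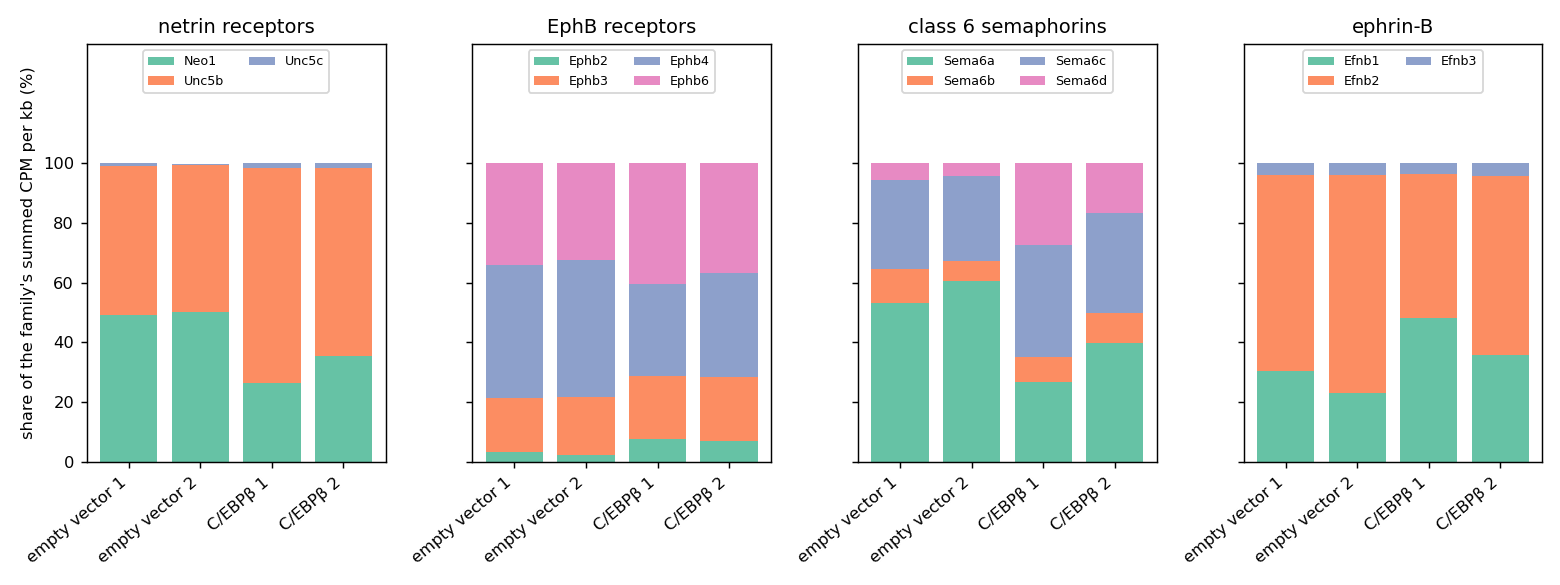
Share of each member in the summed level per length (CPM per kb, in %) of 4 families, for each library; members under 0.5% in every library are not drawn. Neo1 takes 49.3% and 50.1% of the netrin receptor sum in empty vector libraries and 26.5% and 35.6% in C/EBPβ libraries, and Sema6d grows from 5.46% and 4.11% to 27.4% and 16.6% of class 6.

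Among the Eph receptors, 4 genes rose and 2 fell. In EphB, whose preferred ligands are the transmembrane ephrins, 3 of 4 tested genes rose and none fell. Ephb2, which also reads ephrin-A5, rose from 13.9 and 9.99 to 44.0 and 33.0 CPM (1.68, SE 0.18, adjusted p = 3.98e-04). Ephb3 rose from 37.2 and 39.6 to 59.0 and 51.1 CPM (0.52, SE 0.10, adjusted p = 0.00605). Both genes kept their call with any 1 library left out. Ephb6, which lacks kinase activity, went from 42.0 and 40.2 to 68.7 and 52.2 CPM (0.55, SE 0.13, adjusted p = 0.0149). Its call did not hold without control 1 (0.58, adjusted p = 0.0549), control 2 (0.52, adjusted p = 0.0723) or C/EBPβ library 1 (0.34, adjusted p = 0.100). Ephb4, a receptor of ephrin-B2 known from veins and with the highest mean level of the class per length over all 4 libraries (14.2 CPM per kb), had 68.3 and 69.9 against 64.5 and 61.4 CPM (-0.14, SE 0.08, adjusted p = 0.261). In both C/EBPβ libraries Ephb6 was above Ephb4 per length, at 18.2 and 13.8 against 13.9 and 13.2 CPM per kb.

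In EphA, only 4 of 9 genes were tested, of which 1 rose and 2 fell. Epha1 rose, with replicates close together at 25.8 and 26.2 CPM with empty vector and 50.2 and 49.6 CPM with C/EBPβ (0.94, SE 0.09, adjusted p = 1.73e-04). Epha4, which binds ephrins of both classes and steers motor axons, fell from 21.1 and 25.0 to 6.76 and 11.7 CPM (-1.29, SE 0.22, adjusted p = 0.00377). Epha2, the main EphA gene here and a receptor often high in epithelia and tumours, had 273 and 271 against 219 and 222 CPM (-0.30, SE 0.08, adjusted p = 0.0267). That small fall was lost without C/EBPβ library 1 (-0.29, adjusted p = 0.203) and without C/EBPβ library 2 (-0.32, adjusted p = 0.122). Per length, Epha2 held 86.2% and 85.4% of the EphA sum in controls and 77.3% and 76.9% with C/EBPβ, while Epha1 went from 9.70% and 9.82% to 21.1% and 20.4%. Epha7 was not called (0.13, adjusted p = 0.763, and -0.24 without C/EBPβ library 2).

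Of the 8 ephrins, all were tested, 2 fell and none rose. Efna5, a lipid-anchored ligand of Epha4 and Ephb2, had 19.6 and 18.2 CPM with empty vector and 5.71 and 7.13 CPM with C/EBPβ. This was the largest fall among tested guidance genes, to 0.342 of the control level (-1.55, SE 0.14, adjusted p = 1.63e-04). Efnb2, a transmembrane ligand of Ephb4, fell from 91.1 and 115 to 61.0 and 71.7 CPM (-0.63, SE 0.13, adjusted p = 0.00770). Efna1, a preferred ligand of Epha2 and the most abundant ephrin-A gene per length in every library (mean 13.8 CPM per kb), had 25.9 and 26.3 against 25.2 and 24.0 CPM (-0.09, SE 0.09, adjusted p = 0.555).

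The other ephrin-A genes had log2 fold changes of -0.29 (Efna2), -0.20 (Efna3) and -0.15 (Efna4), and Efnb3 of -0.19, none past the threshold. Efnb1, a marker of tissue boundaries, had 21.2 and 18.2 against 30.6 and 21.6 CPM (0.40, adjusted p = 0.120). It was at 0.64 without C/EBPβ library 2, and it passed when genes were not filtered (0.41, adjusted p = 0.00761). The ligand Efna5 and its receptor Epha4 had log2 fold changes of the same sign, -1.55 and -1.29. Ephb2, the other Efna5 receptor named above, had the opposite sign (1.68). For Efnb2 and the EphB receptors the signs differed except at Ephb4.

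Among Slits and Robos a single gene passed. Slit2, the only Slit above the filter, rose from 41.2 and 34.5 to 56.6 and 50.8 CPM (0.50, SE 0.11, adjusted p = 0.0115). Robo1, its main receptor here, had 36.1 and 50.1 against 31.5 and 35.4 CPM (-0.36, SE 0.15, adjusted p = 0.118). The Robo1 groups did not overlap, and it passed as lower when genes were not filtered (-0.35, adjusted p = 0.0122). Its log2 fold change was -0.58 without control 1 and -0.45 without C/EBPβ library 2. Robo2 was not called, at -0.21 (adjusted p = 0.571), with 0.00 without control 2 and 0.06 without C/EBPβ library 1.

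Beside Dcc, Epha6 and Robo4 (a Robo of endothelium) had 0 counts in all 4 libraries. The remaining protein-coding members under the filter, among them Slit1, Slit3, Sema5b, Epha3, Ephb1, Unc5a and Plxnc1, had at most 22 counts in any library, and no fold is given for them. Slit3 had 1 and 0 against 4 and 9 counts (0.0243 and 0 against 0.105 and 0.0980 CPM). Sema5b had 2 and 2 against 9 and 5 counts (0.0486 and 0.0529 against 0.236 and 0.0544 CPM). Of the antisense RNAs, Plxna4os1 and Plxna4os2 were at 0 and Plxna4os3 had 1 count in C/EBPβ library 1. The rise of Plxna4 was counted on its own strand.

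Summed per length, semaphorins stood at 128 and 154 CPM per kb with empty vector and 96.5 and 113 CPM per kb with C/EBPβ. All ligands together went from 197 and 228 to 154 and 168 CPM per kb. The receptors together went from 303 and 328 to 349 and 318 CPM per kb, ranges that overlap. Plexins, of which 6 of 8 did not pass, held 107 and 129 against 123 and 115 CPM per kb of it. EphB receptors went in sum from 32.9 and 32.8 to 45.0 and 37.8 CPM per kb, and neuropilins from 23.4 and 22.7 to 32.0 and 28.4 CPM per kb. These sums are descriptions, with no test.

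**Figure D4:**
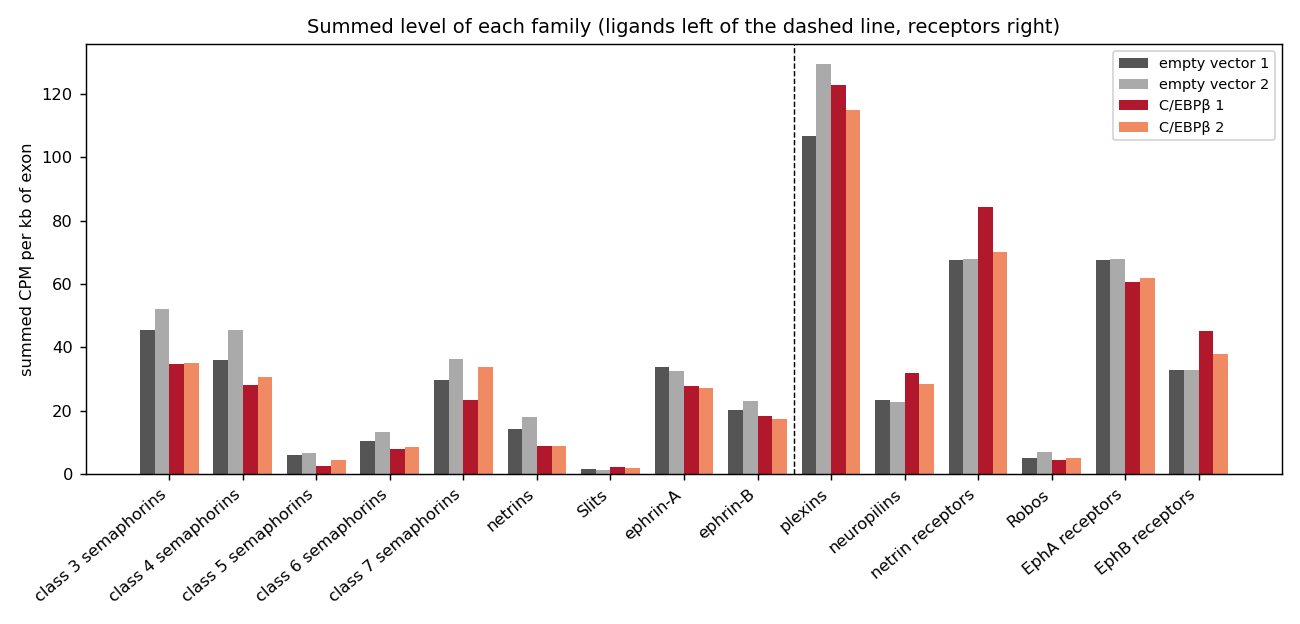
Summed level of each family in each library, in CPM per kb of exon, ligand families left of the dashed line and receptor families right of it. The netrin bars stand at 14.1 and 18.0 in empty vector and 8.86 and 8.73 in C/EBPβ libraries, whereas plexin bars overlap between groups at 107 to 129.

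C/EBPβ library 2, the deepest library, tended to lie closer to the controls. In 29 of the 32 called guidance genes (90.6%) it lay nearer to the controls than C/EBPβ library 1, with Sema3b, Sema4a and Ntn4 as the exceptions. The same held for 83.6% of the 3759 genes called in all, while Cebpb differed by little between those libraries. The part that depth plays in this was not tested.

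**Figure D5:**
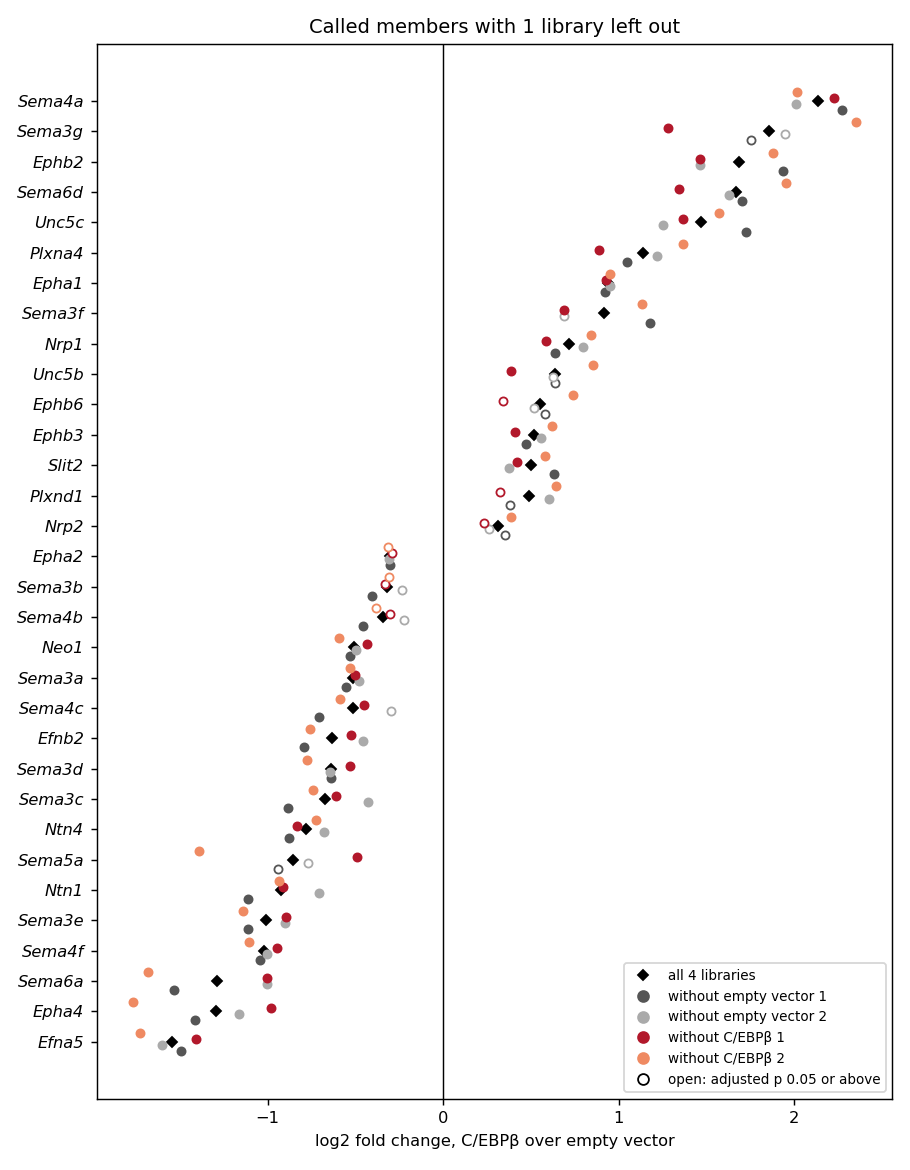
Log2 fold change of each of the 32 called guidance genes in all 4 libraries (black diamonds) and with each library left out in turn (circles); open circles have an adjusted p of 0.05 or above. All circles stay on the side of 0 of their diamond, and 21 of the 32 genes keep their call in all 4 leave-outs.

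The called genes lie across many chromosomes, with some neighbours changing in the same direction and others not. Whether neighbours share a direction more often than other genes was not tested. All coordinates are GRCm38, from the deposited gene models (GENCODE M12), and each gene named here is annotated as protein-coding. On chromosome 5, plus strand, Sema3d (ENSMUSG00000040254, 12383385 to 12588948), Sema3a (ENSMUSG00000028883, 13125414 to 13602565) and Sema3e (ENSMUSG00000063531, 14025276 to 14256689) follow each other with gaps of 536 kb and 423 kb, and all 3 fell. Sema3c (17574281 to 17730268), which also fell, lies 3318 kb further on. On chromosome 9, minus strand, Sema3b (107597674 to 107609229) and Sema3f (107681500 to 107710475) lie 72.3 kb apart, and the first fell while the second rose. The ephrin-A genes Efna1, Efna3 and Efna4 form a cluster on chromosome 3 with gaps of 32.8 kb and 10.4 kb, and none of them passed. Efna5 lies elsewhere, on chromosome 17 (62604184 to 62881317, minus strand). On chromosome 6, Ephb6 (41605482 to 41620509, plus strand) and Epha1 (42358487 to 42373268, minus strand) are 738 kb apart and both rose. Ephb2 spans 136647539 to 136835988 on the minus strand of chromosome 4, and Sema4a spans 88435959 to 88461182 on the minus strand of chromosome 3.

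Since C/EBP proteins bind a dyad sequence, the promoters were searched for the C/EBP-type motif TTGCNNAA on either strand, in the 250 bases before each RefSeq transcription start (GRCm38.p6). Of the 72 genes, 59 had at least 1 such window. A match was found for 3 of the 59 genes (5.08%), against 10.8% of all 27025 genes with a promoter. By result, 1 of 13 genes that rose, 0 of 14 that fell and 2 of 19 that were tested without passing held a match. The 3 stretches with a match are shown because they are the only ones among these windows. Each is written 5′ to 3′ along the gene, with the match in capitals (TTGAGCAA is the motif read on the other strand). They lie at chr3:88455937-88455996 (minus strand, before 1 of 4 starts of Sema4a), chr16:75092852-75092911 (minus strand, before 1 of 3 starts of Robo2) and chrX:74328826-74328885 (plus strand, Plxna3). The Sema4a stretch lies inside the deposited gene model, and the Robo2 stretch lies 681 kb outside it.
Sema4a: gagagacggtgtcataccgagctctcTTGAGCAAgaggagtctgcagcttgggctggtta
Robo2: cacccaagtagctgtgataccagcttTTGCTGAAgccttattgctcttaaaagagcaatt
Plxna3: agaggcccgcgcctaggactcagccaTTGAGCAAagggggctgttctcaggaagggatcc

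For the neighbouring genes of chromosome 5 that fell, the 100 bases before the RefSeq start are shown to let their promoters be compared. The RefSeq start of Sema3a used here lies inside the gene span given above. The stretches lie on the plus strand at chr5:12383066-12383165 (Sema3d), chr5:13396684-13396783 (Sema3a) and chr5:14025176-14025275 (Sema3e). None of them holds the motif, and their G and C content was 53.0%, 42.0% and 64.0%.
Sema3d: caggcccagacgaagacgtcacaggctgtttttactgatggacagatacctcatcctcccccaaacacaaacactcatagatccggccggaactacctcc
Sema3a: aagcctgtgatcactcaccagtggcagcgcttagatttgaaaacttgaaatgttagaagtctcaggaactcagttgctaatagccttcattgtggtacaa
Sema3e: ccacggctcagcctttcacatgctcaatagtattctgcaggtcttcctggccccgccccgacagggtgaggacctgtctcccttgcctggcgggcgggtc
A match describes letters only, and its absence from these windows says nothing on binding elsewhere in the gene.

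The machinery that carries guidance signals inside the cell, with their further co-receptors and ligands, was read from a list of 64 other genes. It is called the intracellular list below, although those co-receptors and ligands are not intracellular. Of these 56 were tested, 9 rose, 15 fell and 32 did not pass, with a median log2 fold change of -0.04, beside 14.1% higher and 10.8% lower among all tested genes. Genes are named here by the smallest adjusted p in each direction, not by the size of the change. The falls so chosen were those of Chn2, a Rac-inactivating chimaerin, from 28.6 and 27.1 to 7.23 and 9.24 CPM (-1.74, SE 0.14, adjusted p = 7.83e-05), and of Ngef, an exchange factor that couples Epha4 to RhoA, from 42.3 and 43.9 to 12.4 and 15.8 CPM (-1.60, SE 0.13, adjusted p = 8.82e-05). L1cam, an adhesion molecule that partners Nrp1 in Sema3a responses, fell from 91.2 and 127 to 25.2 and 34.5 CPM (-1.86, SE 0.18, adjusted p = 2.47e-04). The rises so chosen were those of Tiam1, a Rac exchange factor, from 21.3 and 21.7 to 58.8 and 49.8 CPM (1.33, SE 0.11, adjusted p = 8.87e-05), and of Enah, an actin filament elongation factor, from 44.1 and 35.6 to 150 and 118 CPM (1.75, SE 0.14, adjusted p = 9.45e-05). Limk2, a kinase of cofilin, rose by 0.64 (SE 0.08, adjusted p = 0.00102). Each of these 6 genes kept its call with any 1 library left out. Limk1, the gene related to Limk2 on the same list, went the other way, from 96.7 and 104 to 70.2 and 72.7 CPM (-0.49, SE 0.08, adjusted p = 0.00319). The core GTPases Rac1 and Cdc42 did not pass (-0.14 and -0.12). Rhoa, at -0.32 (adjusted p = 0.0316), passed with all libraries and was lost without control 1 (-0.27), C/EBPβ library 1 (-0.29) or C/EBPβ library 2 (-0.36).

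The authors' deposited table of a C/EBPβ comparison gives an adjusted p for 55 of the guidance genes, below 0.05 for 33 of them, 14 higher and 19 lower. Of all 16594 genes with an adjusted p in the authors' deposited table, 26.0% are below 0.05, 12.4% higher and 13.6% lower. Of those 33, 31 were also called here with the same sign. In the authors' deposited table Robo1 and Plxna2 also pass as lower (adjusted p = 0.0358 and 0.00978), while Nrp2 does not (adjusted p = 0.0863). Which libraries stand behind that table was not stated, so it is no independent support.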

How the data were processed

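The deposited values are raw gene counts of read pairs. Per the file headers the authors made them with featureCounts 1.5.1, paired and reverse-stranded, on GENCODE M12. Multi-mapping reads were left out. Per the submitters' processing notes, HISAT2 2.0.4 (GRCm38), featureCounts 1.4.6 and DESeq2 were used; the versions of featureCounts differ and this was not settled. The authors' deposited comparison table holds a base mean signal, log2 fold change and its standard error, a test statistic (score) and p-values. It was not retested.

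Counts were filtered with filterByExpr (minimum count 10, minimum total 15) and tested in all 4 libraries with edgeR 4.0.16 (R 4.3.3), TMM scaling and no covariate, on all 15078 genes left, with calls at an adjusted p of 0.05. Standard errors are the log2 fold change over the root of the F statistic. The fit was tested on simulated counts. Alternatives within edgeR were RLE size factors in place of TMM, library totals, other filters, a test against 1.5-fold, a replicate block and leaving out each library. DESeq2 1.42.0 was also run, with its own size factors and test. Symbols came from the GENCODE annotation of the same build (49326 identifiers matched) and per-length levels from the deposited exon lengths. Overlapping non-coding features on a member's strand held at most 37 counts in any library (Gm37121 in Nrp2).

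Members, lists and tests were chosen with earlier results of these data known. In each family up to 3 called genes per direction with the smallest adjusted p, and the most abundant tested gene per length, are given in full; other members by value or count. The promoter stretches were chosen after the results were seen.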

Additional observations from a re-analysis of the deposited data

How the results depend on the processing

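No called guidance gene changed direction under any alternative run, which groups that do not overlap make likely beforehand. Calls made with 1 library left out rest on the spread of the other group's pair alone. With any 1 library left out, 10 to 16 guidance genes were called higher and 13 to 20 lower, 6 to 12 and 13 to 16 of the intracellular list, and 2493 to 3462 of all genes, the lowest of these without C/EBPβ library 1 (replicate 1). Signs turned only in genes that were not called, whose log2 fold changes with 1 library left out ran from -0.49 to 0.037 (Sema7a), -0.24 to 0.36 (Epha7), -0.62 to 0.058 (Robo2), -0.40 to 0.0057 (Plxna1), -0.034 to 0.40 (Plxnb1) and -0.15 to 0.071 (Plxnb2). Robo2 also turned to 0.0023 without control 2. Against a 1.5-fold change, a stricter test by construction, 7 guidance genes were higher (Sema3g, Sema4a, Sema6d, Epha1, Ephb2, Unc5c and Plxna4) and 6 lower (Sema3e, Sema4f, Sema6a, Efna5, Ntn1 and Epha4), with 2 and 7 of the intracellular list and 1259 of all genes. Without the low-count filter 15 genes of the intracellular list were higher, and with at least 5 CPM in 2 libraries, which tests fewer genes, 10 were lower.

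The replicate numbers are shared by name only. Deviations of same-numbered libraries correlated at 0.147 over 15078 genes, with 2 pairs too few to establish pairing. With the replicate block 16 guidance genes were higher and 19 lower, 13 and 16 of the intracellular list, and 4536 of all genes; Efnb1 (0.39, adjusted p = 0.00901), Robo1 (-0.35, adjusted p = 0.0110) and Plxna2 (-0.47, adjusted p = 0.00339) then passed. The untested protein-coding guidance genes had at most 22 counts in any library, so a fold could not be measured. Whether depth or absent expression lies behind this was not tested. With 2 libraries per group, the replicate spread itself is poorly known, and small changes that did not pass cannot be told from it.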
